A study of Mus musculus with 12 samples.

Results

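*Ube2a* and *Ube2b* encode a pair of closely related ubiquitin-conjugating (E2) enzymes, and *Rad18*, *Rnf20*, *Rnf40* and *Ubr2* encode E3 ligases that work with them. These 6 genes were chosen by name from the 54146 genes of the deposited tables, and the question asked of them was whether the level of *Ube2b* rose where that of *Ube2a* fell. All 12 libraries came from mouse embryonic stem cells (mESCs) of strain C57BL/6 and genotype Prdm10F/F; Rosa26-CreERT2. In these cells both *Prdm10* alleles carry a floxed exon, and a tamoxifen-activated Cre is driven from the *Rosa26* locus. Cells were exposed for 24 h to 50 nM 4-hydroxytamoxifen (OHT) or to ethanol (EtOH), and total RNA was sequenced at Day 2 or Day 4, with 3 libraries in each of the 4 groups. All groups carried both the floxed alleles and CreERT2, no library carried CreERT2 without a floxed allele, and so the activity of Cre and the loss of *Prdm10* cannot be told apart here.

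An E2 enzyme takes activated ubiquitin from an E1 enzyme and passes it to a substrate with the help of an E3 ligase, which picks the substrate. UBE2A and UBE2B are the mammalian counterparts of yeast Rad6. With the RNF20 and RNF40 heterodimer they place a single ubiquitin on histone H2B in transcribed chromatin, with RAD18 they ubiquitinate the replication clamp PCNA at stalled forks, and with UBR2 they take part in the N-degron pathway, in which proteins are degraded according to their first amino acid. *Ube2a* is X-linked, and either enzyme of the pair can serve the same ligases.

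The paralogues lie on different chromosomes. *Ube2a* (ENSMUSG00000016308.12) spans chrX:36873900-36884222 on the plus strand and *Ube2b* (ENSMUSG00000020390.12) spans chr11:51985497-52000762 on the minus strand (GRCm38, GENCODE vM21). The coding sequence of the first annotated transcript of each was 456 bases long without the stop codon, was cut into 6 coding exons of the same lengths, and was identical at 77.6% of bases. Coding exon 5, the most alike of them at 83.2%, is shown to let the resemblance be seen; capitals mark the 15 of 89 bases at which the genes differ. Its *Ube2a* copy lies at chrX:36882599-36882687 on the plus strand and its *Ube2b* copy at chr11:51988612-51988700 on the minus strand.
Ube2a: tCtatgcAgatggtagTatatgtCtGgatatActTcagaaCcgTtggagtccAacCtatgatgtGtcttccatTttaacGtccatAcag
Ube2b: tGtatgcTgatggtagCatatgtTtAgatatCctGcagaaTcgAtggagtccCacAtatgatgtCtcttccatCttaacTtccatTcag

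No stretch as long as the 75-base reads was common to any annotated transcripts of the pair. The longest run they shared was 18 bases, and 0 of the 2481 distinct 75-base stretches of *Ube2a* transcripts occurred in *Ube2b*. The posterior SD that RSEM, the authors' counting program, attached to the gene counts was 0 for all 6 genes in all 12 libraries. Reads of *Ube2a* and *Ube2b* were therefore counted apart. *Gm26551*, a long non-coding gene annotated over all of *Ube2b* on the same strand, had 13 to 33 counts in a library, so that few of the reads there were counted away from *Ube2b*.

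Both paralogues, and none of the 4 ligases, were on the study's list of genes bound by PRDM10, a zinc finger transcription factor. The study assigned binding peaks to genes by nearness to the gene body, so a listing does not place a peak at a gene's own promoter. The 120 bases before the start site of each paralogue (RefSeq, GRCm38.p6) are shown because both genes are on that list. Beside them are the wild-type and mutated gel-shift probes that the study designed around its PRDM10 motif. Capitals mark matches to the invariant letters of that motif, TGGTNNNNNCC, searched on both strands. The *Ube2a* stretch is chrX:36874175-36874294 on the plus strand, and the *Ube2b* stretch, at the outer of 2 RefSeq starts, is chr11:52000787-52000906 on the minus strand.
Wild-type probe: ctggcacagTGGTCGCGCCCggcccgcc
Mutated probe: ctggcacagcaaccgcatttggcccgcc
Ube2a: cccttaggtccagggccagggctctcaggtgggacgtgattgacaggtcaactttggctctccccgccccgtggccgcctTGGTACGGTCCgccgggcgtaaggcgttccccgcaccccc
Ube2b: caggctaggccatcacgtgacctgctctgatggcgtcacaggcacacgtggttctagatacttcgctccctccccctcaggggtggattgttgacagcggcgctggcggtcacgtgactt

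The letters occurred once in the wild-type probe and not in the mutated one. The *Ube2a* window, 300 bases from 250 before to 50 after the start, held 2 matches on the gene's own strand, TGGTACGGTCC from position -40 and TGGTTCGGCCC from position 20, counted from 1 at the first transcribed base. None of the windows of *Ube2b*, *Rad18*, *Rnf20*, *Rnf40* or *Ubr2* held a match. Of all 32851 promoter windows of this length, 13.8% held at least 1 match and 1.37% held 2 or more. A match is a resemblance of letters and not a measured binding site. Whether matches bear on the levels of these genes was not tested.

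The libraries held between 35017667 and 41409992 expected counts, and the 6 genes had between 802 and 4008 in each library. The gene-level count of *Prdm10* cannot check the labels, since it sums all exons: its level was 3.91 ± 0.20 TPM (transcript share of a library, scaled for gene length and to the same total in every library) in the libraries labelled EtOH and 10.1 ± 0.40 in those labelled OHT at Day 2 (SD, n = 3), and 4.54 ± 0.20 and 9.29 ± 0.26 at Day 4. It was therefore higher, not lower, where OHT was given, and groups are called below by their labels. The 6 embryonic stem cell markers, *Pou5f1*, *Nanog*, *Sox2*, *Klf4*, *Esrrb* and *Zfp42*, were at 26.1 TPM or more in every library, and their summed level ran from 799.8 to 1019 TPM. Of 5 fibroblast markers only *Thy1* reached 1 TPM in any library, with at most 2.84 TPM, and the summed level of the list was 1.00 to 1.61 TPM in the Day 4 libraries labelled OHT and between 2.37 and 3.32 TPM in all others. Of 10 markers of differentiated lineages only *Eomes* reached 1 TPM.

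*Ube2a* was lower in the libraries labelled OHT at both days. At Day 2 its level was 53.0, 54.0 and 52.2 TPM in the 3 libraries labelled EtOH, and 35.1, 31.5 and 29.8 TPM in the 3 labelled OHT. At Day 4 it was 63.0, 61.4 and 55.3 TPM under the EtOH label and 28.7, 26.9 and 26.9 TPM under the OHT label. The groups stood well apart at each day, and the lowest library labelled EtOH held more than any labelled OHT. On the scale of counts the log2 fold change of OHT against EtOH was -0.78 (SE 0.066, adjusted p = 1.37e-29) at Day 2, a change of -41.8%. At Day 4 it was -1.08 (SE 0.065, adjusted p = 6.02e-60), a change of -52.7% against the EtOH libraries of that day. Changes of that size in either direction were uncommon, and 0.945% of all genes tested at Day 2 and 1.20% at Day 4 had one as large. In bulk RNA, fewer cells with the transcript and less transcript per cell cannot be told apart.

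**Figure D1:**
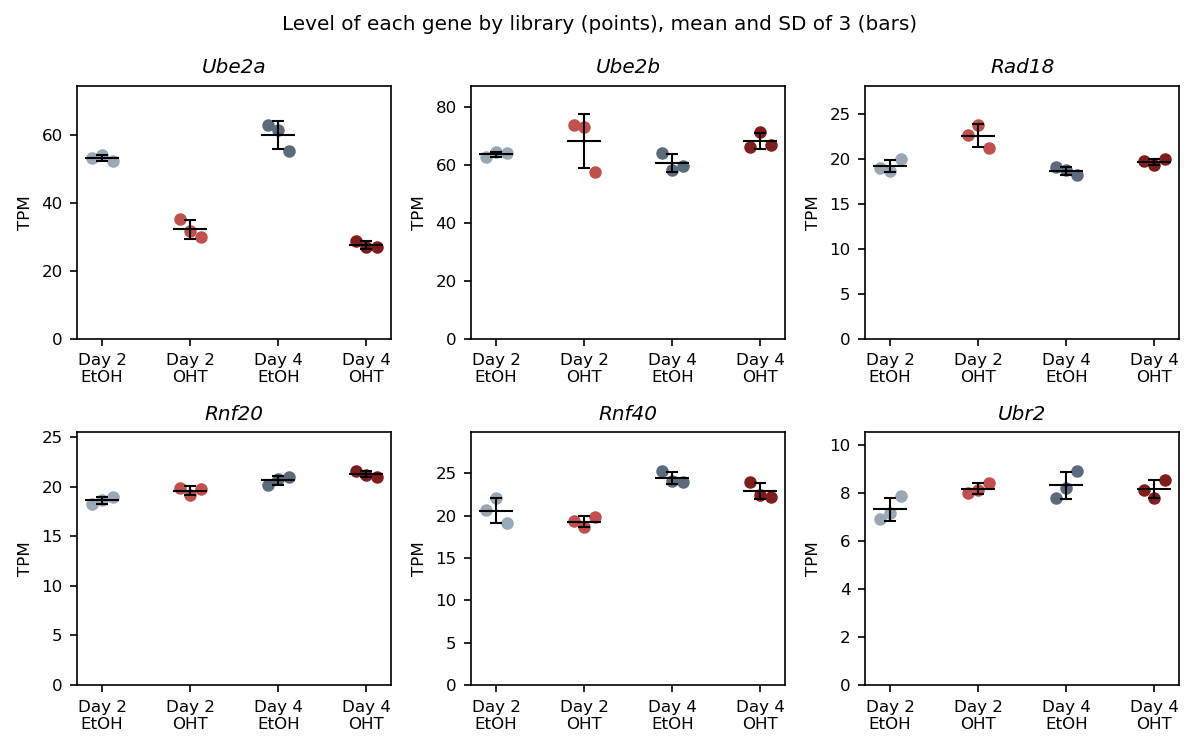
Level in TPM (y axis, from 0) of each of the 6 genes in the 4 groups (x axis); points are libraries and bars the mean and SD of 3. *Ube2a* drops from 53.1 to 32.2 TPM at Day 2 and from 59.9 to 27.5 TPM at Day 4, while the means of the other 5 genes move by far less between labels.

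The fall of *Ube2a* was larger at Day 4 than at Day 2. The difference between the 2 fold changes was -0.30 on the log2 scale (SE 0.083, adjusted p = 0.0028). In the libraries labelled EtOH the counts of *Ube2a* did not pass the test between days (log2 fold change of Day 4 against Day 2 -0.01, 95% interval -0.12 to 0.11), whereas in those labelled OHT they fell by 0.30 (SE 0.074, adjusted p = 3.1e-04). Normalised counts in the 3 libraries labelled OHT were 1009, 957 and 918 at Day 2 and 801, 798 and 746 at Day 4. Every Day 4 library was thus below every Day 2 library. In TPM the level under EtOH was 53.1 ± 0.93 at Day 2 and 59.9 ± 4.07 at Day 4 (SD, n = 3). Under OHT it was 32.2 ± 2.73 and 27.5 ± 1.06. The days did not overlap under either label in TPM, with EtOH higher and OHT lower at Day 4. Whether the EtOH level of *Ube2a* differed between days thus depended on the measure.

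*Ube2b* showed no change that passed the test at Day 2 and a small rise at Day 4. At Day 2 its level was 62.7, 64.5 and 64.0 TPM in the libraries labelled EtOH, and 74.0, 73.1 and 57.5 TPM in those labelled OHT. The third library labelled OHT was the lowest of the 6 and the other two were the highest, so the groups overlapped and the spread under OHT was wide (68.2 ± 9.32 TPM against 63.7 ± 0.91, SD, n = 3). At Day 4 the level was 64.1, 58.2 and 59.8 TPM under EtOH and 66.2, 71.5 and 67.1 TPM under OHT, with no overlap. The log2 fold change of counts was -0.02 (95% interval -0.14 to 0.10, adjusted p = 0.869) at Day 2 and 0.15 (95% interval 0.05 to 0.24, adjusted p = 0.0123) at Day 4, a rise of 10.7%.

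The Day 4 rise of *Ube2b* did not hold under every setting. It missed the threshold without Day 4 EtOH replicate 2 (0.13, adjusted p = 0.0835), without Day 4 EtOH replicate 3 (0.13, adjusted p = 0.0693) and without Day 4 OHT replicate 2 (0.12, adjusted p = 0.133). At Day 2 the sign turned when Day 2 OHT replicate 3 was left out (0.05, adjusted p = 0.654). The difference between the fold changes of the 2 days, 0.17 (SE 0.081, adjusted p = 0.110), did not pass the test. In the libraries labelled EtOH, *Ube2b* fell by 0.19 from Day 2 to Day 4 (SE 0.049, adjusted p = 5.6e-04), from 2690 ± 21.3 to 2359 ± 88.0 normalised counts (SD, n = 3), while in those labelled OHT it went from 2647 ± 237 to 2616 ± 105, a log2 fold change of -0.02 (95% interval -0.14 to 0.11). In normalised counts the Day 4 libraries labelled OHT were thus within the range of the Day 2 libraries and those labelled EtOH were below the Day 2 libraries of their label. In TPM the libraries labelled EtOH overlapped between the days, and all 3 Day 4 libraries labelled OHT were above every Day 2 library labelled EtOH, so which label stood apart at Day 4 depended on the measure.

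**Figure D2:**
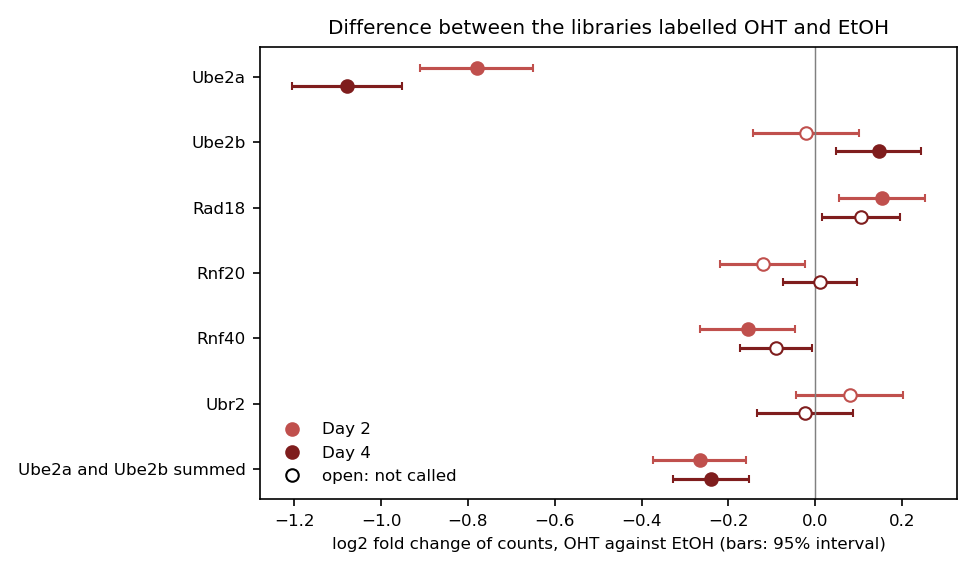
Log2 fold change of counts, OHT against EtOH (x axis), at Day 2 (lighter) and Day 4 (darker) for each gene and for the summed counts of *Ube2a* and *Ube2b*; bars are 95% intervals and open points did not pass the test. *Ube2a* lies at -0.78 and -1.08, and every other gene lies within 0.16 of 0.

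The gain of *Ube2b* transcript was smaller than the loss of *Ube2a* transcript. In TPM, which is per length and so can be compared between genes, the mean of *Ube2a* was lower under OHT by 20.9 ± 1.67 (SE of the difference, n = 3 and 3) at Day 2 and by 32.3 ± 2.43 at Day 4. The mean of *Ube2b* was higher by 4.48 ± 5.40 at Day 2, less than its standard error, and by 7.57 ± 2.41 at Day 4. The *Ube2b* difference thus came to 21.4% and 23.4% of the *Ube2a* difference. The Day 2 share rested on single libraries, since it was 50.0% without Day 2 OHT replicate 3, 7.05% without Day 2 OHT replicate 1 and 9.75% without Day 2 OHT replicate 2, whereas at Day 4 it ran from 18.5% to 30.1% with 1 library left out. In counts, where the Day 2 fold change of *Ube2b* was -0.02, there was no gain at that day. To equal the *Ube2a* difference, *Ube2b* would have needed a rise of 0.41 on the log2 scale of TPM at Day 2 and of 0.62 at Day 4. The upper 95% bounds of its fold change of counts were lower, 0.10 and 0.24, but are on another scale. No interval was computed for its change in TPM, which had a wide spread under OHT at Day 2. These bounds therefore do not decide the question in TPM.

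The summed level of the pair was lower in the libraries labelled OHT. At Day 2 the sums were 115.7, 118.5 and 116.2 TPM under EtOH, and 109.2, 104.7 and 87.2 TPM under OHT. At Day 4 they were 127.1, 119.6 and 115.0 TPM under EtOH and 94.9, 98.4 and 94.0 TPM under OHT. The groups did not overlap at either day, and the third Day 2 library labelled OHT, the one low in *Ube2b*, was the lowest of all. The mean log2 difference was -0.23 at Day 2 (-0.13 without that library) and -0.33 at Day 4, each over all libraries with p = 0.1 in a two-sided exact permutation test, which is the smallest that 3 against 3 libraries allow. Over both days, with labels permuted within each day, the mean difference was -0.28, so that the sum decreased by 17.5%, with an exact permutation p = 0.005, again the smallest possible. The summed counts of the pair, put through the test across all genes, gave log2 fold changes of -0.27 (SE 0.055, adjusted p = 3.94e-05) at Day 2 and -0.24 (SE 0.045, adjusted p = 8.94e-07) at Day 4.

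The balance of the pair moved towards *Ube2b*. The ratio is made of the levels given above and most of its move was the fall of *Ube2a*, so it is not a separate result. The ratio of *Ube2b* to *Ube2a* TPM was 1.20 ± 0.023 under EtOH and 2.12 ± 0.20 under OHT at Day 2 (SD, n = 3), and 1.02 ± 0.066 and 2.48 ± 0.18 at Day 4. The lowest ratio under OHT, 1.93, was above the highest under EtOH, 1.23. *Ube2a* made up 45.4% ± 0.47 of the pair's summed TPM under EtOH and 32.2% ± 2.01 under OHT at Day 2, and 49.6% ± 1.64 and 28.8% ± 1.48 at Day 4. The log2 difference of the ratio was 0.81 at Day 2 and 1.29 at Day 4, each with an exact permutation p = 0.1, and 1.05 over both days with an exact permutation p = 0.005.

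**Figure D3:**
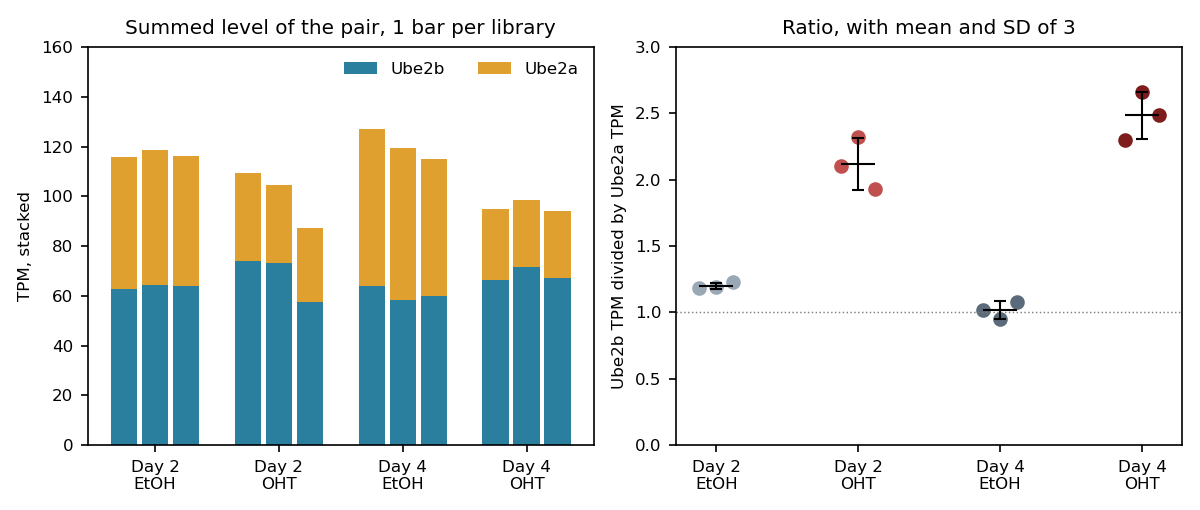
Left, *Ube2b* (lower part) and *Ube2a* (upper part) TPM stacked for each of the 12 libraries, in replicate order within each group; right, the ratio of *Ube2b* to *Ube2a* TPM per library with the mean and SD of 3, the dotted line marking equal levels. The sums are 115.0 TPM or more under EtOH and 109.2 TPM or less under OHT, and the ratio is 1.23 or less under EtOH and 1.93 or more under OHT.

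Counted over the 6 genes, 1 was called higher and 2 lower at Day 2, and 1 higher and 1 lower at Day 4, where a gene is called if its adjusted p is below 0.05 and its normalised counts average over 100. Among all genes tested, 9.26% were called higher and 10.8% lower at Day 2, and 23.5% higher and 21.7% lower at Day 4. All 6 genes passed the minimum mean in every comparison. Normalised counts of the groups did not overlap for 3 of the 6 genes at each day, where 45.6% of all genes tested at Day 2 and 62.9% at Day 4 did not overlap. Apart from *Ube2a*, no called difference between labels among the 6 genes exceeded 11.3% in these DESeq2 counts. In TPM the means under EtOH and OHT stood further apart than that for *Rad18* at Day 2 (19.2 and 22.6 TPM) and *Ube2b* at Day 4 (60.7 and 68.2 TPM).

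*Rad18* (chr6:112619850-112696686, minus strand), the ligase for PCNA, was called higher in the libraries labelled OHT at Day 2, by a small margin, and was not called at Day 4. At Day 2 its level was 19.0, 18.7 and 20.0 TPM under EtOH, and 22.6, 23.9 and 21.3 TPM under OHT. At Day 4 it was 19.1, 18.8 and 18.2 TPM under EtOH and 19.8, 19.3 and 20.1 TPM under OHT, so that the groups stood apart at both days but by little at Day 4. The log2 fold change of counts was 0.15 (SE 0.051, adjusted p = 0.0197) at Day 2 and 0.11 (SE 0.046, adjusted p = 0.0622) at Day 4. The Day 2 call was lost without Day 2 EtOH replicate 1 (adjusted p = 0.0973) or 2 (0.120) and without Day 2 OHT replicate 2 (0.128), and the Day 4 value passed in edgeR (adjusted p = 0.0164), with TMM factors (0.0431), in 1 fit to all libraries (0.0237) and when adjusted over genes above the minimum mean (0.0469). Between the days *Rad18* fell under both labels, by 0.18 under EtOH (SE 0.049, adjusted p = 0.0013) and by 0.22 under OHT (SE 0.048, adjusted p = 3.5e-05).

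*Rnf20* (chr4:49632006-49656887, plus strand) and *Rnf40* (chr7:127588767-127604799, plus strand), which form the ligase for histone H2B, were at similar levels. *Rnf20* was at 18.3, 18.6 and 19.0 TPM under EtOH and 19.9, 19.1 and 19.8 TPM under OHT at Day 2, and at 20.2, 20.8 and 21.0 TPM against 21.6, 21.2 and 21.0 TPM at Day 4. In TPM the libraries labelled OHT were thus the higher at both days. In counts the Day 2 difference had the opposite sign, with normalised counts of 2738 to 2848 under EtOH and 2552 to 2598 under OHT and a log2 fold change of -0.12 that did not pass the test (SE 0.050, adjusted p = 0.0764). The effective length that RSEM gave *Rnf20*, which depends on the mix of its transcripts, was 3153 ± 60.6 bases under EtOH and 2920 ± 129 under OHT (SD, n = 3). With effective lengths as offsets the Day 2 fold change of *Rnf20* was -0.01 (adjusted p = 0.959), while edgeR (-0.11, adjusted p = 0.0474) and 1 fit to all libraries (-0.12, adjusted p = 0.0098) called it lower. The sign of the *Rnf20* difference at Day 2 thus depended on whether counts or TPM were compared.

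At Day 4 the log2 fold change of *Rnf20* counts was 0.01 (95% interval -0.07 to 0.10). The difference between its fold changes of the 2 days was 0.14 (SE 0.053, adjusted p = 0.0439). *Rnf40* was at 20.6, 22.0 and 19.1 TPM under EtOH and 19.4, 18.6 and 19.8 TPM under OHT at Day 2, with overlapping groups. At Day 4 it was at 25.3, 24.1 and 23.9 TPM against 23.9, 22.5 and 22.2 TPM, where the highest library labelled OHT lay just above the lowest labelled EtOH. Its log2 fold change of counts was -0.16 (SE 0.056, adjusted p = 0.0351) at Day 2 and -0.09 (95% interval -0.17 to -0.01, adjusted p = 0.0827) at Day 4. The Day 2 call of *Rnf40* was weak, since it was lost with TMM factors (adjusted p = 0.0549), edgeR (0.0576), effective lengths (0.0697) and total counts (0.157), and without Day 2 EtOH replicate 1 (0.213) or 2 (0.223) or Day 2 OHT replicate 1 (0.136) or 2 (0.254). The Day 4 value passed in edgeR (adjusted p = 0.0348) and with total counts (0.0477). In the libraries labelled OHT both genes rose from Day 2 to Day 4, *Rnf20* by 0.19 (SE 0.046, adjusted p = 2.9e-04) and *Rnf40* by 0.17 (SE 0.051, adjusted p = 0.0036).

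*Ubr2* (chr17:46928295-47010556, minus strand), the N-degron ligase, passed the test in none of the comparisons. Its level was 6.92, 7.16 and 7.87 TPM under EtOH and 8.0, 8.12 and 8.43 TPM under OHT at Day 2, and 7.80, 8.23 and 8.92 TPM against 8.13, 7.80 and 8.55 TPM at Day 4. The groups were separate in TPM at Day 2 by a narrow gap and overlapped at Day 4. In counts the log2 fold change was 0.08 (95% interval -0.04 to 0.20, adjusted p = 0.446) at Day 2 and -0.02 (95% interval -0.13 to 0.09, adjusted p = 0.810) at Day 4. At 7.32 to 8.32 TPM in the group means it was the lowest of the 6 genes, and *Ube2b*, at 60.7 to 68.2 TPM, was the highest in each group.

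Between days, 2 of the 6 genes were called in the libraries labelled EtOH, both lower at Day 4 (*Ube2b* and *Rad18*), where 20.7% of all genes tested were called higher and 20.6% lower. In those labelled OHT, 2 were called higher (*Rnf20* and *Rnf40*) and 2 lower (*Ube2a* and *Rad18*), where 30.9% of all genes were called higher and 23.1% lower. The test of the difference between the days called 2 of the 6, *Ube2a* and *Rnf20*, against 32.5% of all genes tested. The order of the group means in normalised counts was, for *Ube2a*, EtOH at Day 2 and Day 4 (1652 and 1648, which did not differ beyond their spread), then OHT at Day 2 (961.4) and OHT at Day 4 (781.4). For *Ube2b* it was EtOH at Day 2, OHT at Day 2 and OHT at Day 4, which did not differ beyond their spread, and then EtOH at Day 4.

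The other genes of the same pathways moved by much less than *Ube2a*. Of 70 genes on 5 lists, 67 passed the minimum mean; 4 were called higher and 7 lower at Day 2, and 9 higher and 16 lower at Day 4. The shares called higher were 5.97% and 13.4%, below the 9.26% and 23.5% of all genes tested, and the shares called lower, 10.4% and 23.9%, were close to the 10.8% and 21.7% of all genes. Their median log2 fold change was -0.03 at both days, beside -0.03 and 0.01 over all genes tested, and the individual values ran from -0.26 to 0.39 at Day 2 and from -0.36 to 0.37 at Day 4. No gene of these lists came near the fold changes of *Ube2a*. Changes that large were rare among all genes tested as well (0.945% at Day 2 and 1.20% at Day 4). Their absence among 67 genes is therefore near the share of all genes and not a result about these lists.

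**Figure D4:**
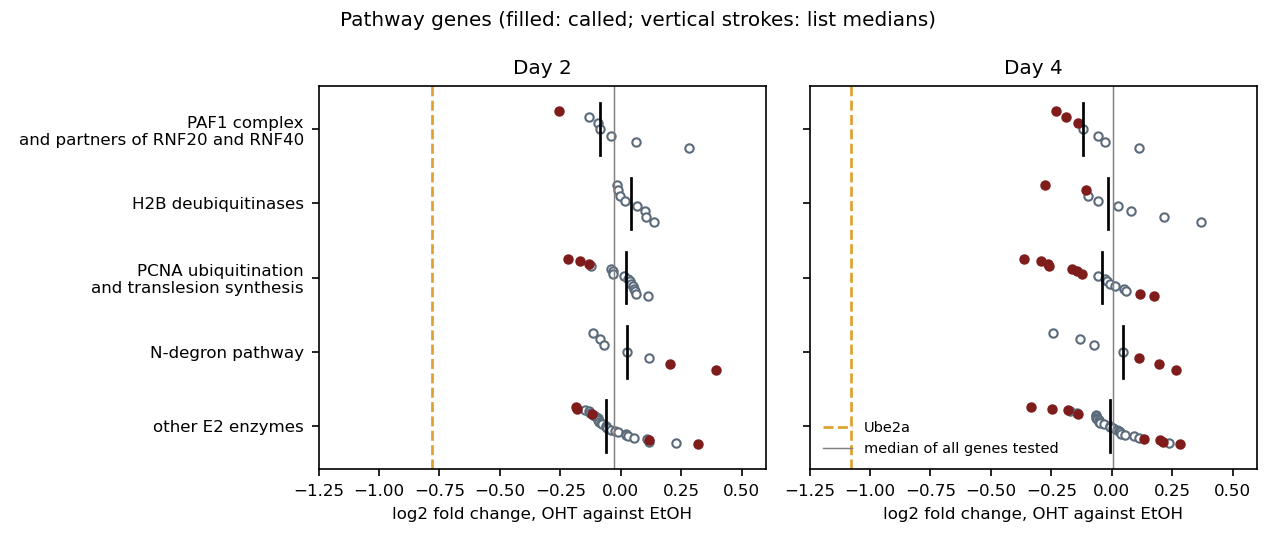
Log2 fold change of counts, OHT against EtOH (x axis), of the 67 pathway genes above the minimum mean, by list (y axis), at Day 2 (left) and Day 4 (right); filled points were called, black strokes are list medians, the grey line is the median of all genes tested and the dashed line is *Ube2a*. All pathway genes lie between -0.36 and 0.39, and *Ube2a* lies outside that range at both days.

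Of the 7 genes of the PAF1 complex and its partners, which bring RNF20 and RNF40 to RNA polymerase II, 1 was called lower at Day 2 and 3 at Day 4. DESeq2 called none higher, with 1 gene higher at an unadjusted p below 0.05 at each day, and edgeR called 1 higher at each day. Without Day 4 OHT replicate 1 the Day 4 count was 1, and without Day 2 EtOH replicate 3 the Day 2 count was 2. The median log2 fold change was -0.09 at Day 2 and -0.12 at Day 4. *Wdr61*, a subunit of that complex, had the largest called difference at Day 4, from 79.0 ± 4.25 to 66.2 ± 1.85 TPM (SD, n = 3), a log2 fold change of counts of -0.23 (SE 0.046). Of the 8 tested genes for H2B deubiquitinases and their partner subunits, DESeq2 and edgeR both called 0 at Day 2, and 0 had an unadjusted p below 0.05 in either. At Day 4 DESeq2 called 2 of them lower and 0 higher, with 1 higher at an unadjusted p below 0.05, edgeR called 2 lower and 2 higher, and the median over the list was -0.02. Leaving out 1 library gave 0 to 2 calls by DESeq2, the 0 without Day 4 OHT replicate 2. *Usp44*, which removes ubiquitin from H2B in embryonic stem cells, went from 4.56 ± 0.36 to 3.73 ± 0.26 TPM at Day 4, a log2 fold change of -0.28 (SE 0.10, adjusted p = 0.0223). That call was lost with effective lengths (adjusted p = 0.0620) and without Day 4 EtOH replicate 1 (0.0539) or 2 (0.152) or Day 4 OHT replicate 2 (0.150) or 3 (0.0623).

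Of the 16 genes of PCNA ubiquitination and translesion synthesis, 3 were called lower and none higher at Day 2 (1 was higher at an unadjusted p below 0.05, and edgeR also called none higher), and 7 lower and 2 higher at Day 4, with a median of -0.04 at Day 4. The Day 2 count was 0 without Day 2 EtOH replicate 1 or 2, and 1 without Day 2 EtOH replicate 3 and with total counts, and at Day 4 leaving out 1 library gave 6 to 9 calls. *Polh*, the translesion polymerase eta that is drawn to ubiquitinated PCNA, was called lower at both days and reached -0.36 (SE 0.067) at Day 4, from 10.4 ± 0.24 to 7.94 ± 0.27 TPM. *Poli*, another translesion polymerase, was the gene called higher with the largest value, 0.17 (SE 0.064, adjusted p = 0.0250), from 8.79 ± 0.32 to 9.83 ± 0.36 TPM. The call of *Poli* was lost without any 1 of the Day 4 libraries other than EtOH replicate 1 (adjusted p = 0.0630 to 0.126), and the Day 2 call of *Polh* was lost without Day 2 EtOH replicate 1 (0.0900) or 2 (0.0706) or Day 2 OHT replicate 2 (0.0526). *Rev3l*, the catalytic subunit of polymerase zeta and a gene on the study's list of bound genes, had a log2 fold change of 0.05 (SE 0.056, adjusted p = 0.638) at Day 2 and of -0.29 (SE 0.050) at Day 4. *Pcna* itself, named for its role and after its values were seen, was at 272.7 ± 17.3 TPM under EtOH and 224.1 ± 3.16 TPM under OHT at Day 4, a log2 fold change of -0.26 (SE 0.037), and at 243.5 ± 3.75 and 251.1 ± 18.3 TPM at Day 2, where it was not called.

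Of the 7 N-degron genes, 2 were called higher at Day 2, *Ubr1* and *Ubr4*, and 3 at Day 4, these and *Kcmf1*. DESeq2 called 0 lower at either day, with 1 lower at an unadjusted p below 0.05 at each day, and edgeR called 0 lower at Day 2 and 2 at Day 4. The Day 2 count was 1 without Day 2 EtOH replicate 1, and 0 without Day 2 EtOH replicate 2 and with effective lengths as offsets, and the Day 4 count was 1 without Day 4 OHT replicate 3. *Ubr4*, a ligase of the same family as UBR2, had the largest value at Day 4, 0.27 (SE 0.083, adjusted p = 0.0059), from 29.2 ± 1.20 to 34.7 ± 1.01 TPM, and was not called without Day 4 OHT replicate 3 (adjusted p = 0.0619). Of the 29 tested genes for other E2 enzymes, 2 were called higher and 3 lower at Day 2, and 4 higher and 4 lower at Day 4, with a median of -0.01 at Day 4. Leaving out 1 library gave 2 to 5 calls at Day 2, fewest without Day 2 EtOH replicate 1, and 7 to 9 at Day 4. *Ube2m*, the E2 for NEDD8, was highest at 0.28 (SE 0.050) and *Ube2v1*, an E2 variant that pairs with UBE2N, was lowest at -0.33 (SE 0.043). *Ube2d3*, the other E2 gene on the list of bound genes, was at 258.2 ± 16.6 and 239.8 ± 5.09 TPM at Day 4 and was not called at either day (log2 fold change -0.11, SE 0.043, at Day 2 and -0.01, SE 0.030, at Day 4). It was called lower at Day 2 with effective lengths (adjusted p = 0.0140), in 1 fit to all libraries (0.0217) and without Day 2 OHT replicate 1 (0.0371).

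Among the 11616 genes with a mean normalised count above 100, those whose log2 counts ran most closely with *Ube2a* over the 12 libraries were *Hyal2* (Pearson r = 0.996), *Sri* (0.995) and *Hap1* (0.994). All 3 were on the study's list of bound genes, which held 3.67% of the genes tested at Day 4. They fell further than *Ube2a*, with log2 fold changes at Day 4 of -2.63 (SE 0.089) for *Hyal2*, -4.50 (SE 0.19) for *Sri* and -5.23 (SE 0.13) for *Hap1*. The genes most like *Ube2b* were *Pik3c2a* (r = 0.964), *Tagap1* (0.926) and *Ptbp3* (0.925), none of them on that list. The correlation of *Ube2b* with *Ube2a* was -0.251. These correlations describe libraries that share groups, days and scaling, and no test was made of them.

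In the GENCODE annotation *Ube2a* has a neighbour whose start lies 211 bases away on the opposite strand. *C330007P06Rik* (chrX:36823737-36874111, minus strand), also on the list of bound genes, was at 7.26 ± 0.30 and 7.16 ± 0.79 TPM at Day 2 and at 9.59 ± 0.61 and 10.2 ± 0.071 TPM at Day 4, in the libraries labelled EtOH and OHT respectively (SD, n = 3). Its log2 fold change was -0.09 (SE 0.076, adjusted p = 0.509) at Day 2 and 0.12 (SE 0.059, adjusted p = 0.0954) at Day 4, where edgeR called it higher (0.12, adjusted p = 0.0298). The list was made by nearness of peaks to gene bodies, so a single peak could place both of these overlapping genes on it. The pair of genes on either side of this start region thus differed in what was called, *Ube2a* lower at both days and *C330007P06Rik* at neither day by DESeq2. Whether their fold changes differ was not tested, and the genes share 212 annotated bases in which reads can be told apart only by strand. *Gm12204*, an antisense gene starting 91 bases from *Ube2b*, had at most 5 counts in a library and could not be tested.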

How the data were processed

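Stranded total RNA libraries of 12 mESC samples were sequenced in 75-base pairs. Per the labels, the authors aligned reads with STAR 2.6.0c to GRCm38.p6 and quantified genes with RSEM. The deposited files give, for each gene and library, expected counts (not normalised), TPM and posterior mean TPM (scaled by the authors to the same total in each library), effective length and the posterior SD of the count. The deposited tables of the authors' own comparisons (log2 fold changes and p-values, made with DESeq2 1.22.2) were read for gene symbols only. Symbols were found for 54079 of 54146 identifiers, and positions came from GENCODE vM21.

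Rounded expected counts were tested with DESeq2 1.42.0 (Wald test, median-ratio factors), separately for each day and for each label between days. The Benjamini-Hochberg adjustment was over the genes kept by that program's default filter on mean count. The difference between days was an interaction term over all 12 libraries. Calls needed an adjusted p below 0.05 and normalised counts averaging over 100; genes tested are those above that mean. Normalised counts in the text come from the factors of all 12 libraries. Intervals are the estimate plus or minus the 95% normal range of its SE. Summed TPM and the TPM ratio of *Ube2a* and *Ube2b* were compared on the log2 scale by two-sided exact permutation tests. The test across genes was also run on simulated counts, and no result of that run is used here.

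Alternatives were edgeR 4.0.16 (quasi-likelihood), TMM factors, total counts, effective lengths as offsets, a replicate block, 1 fit to all 12 libraries, calls without the minimum mean, an adjustment restricted to genes above it, posterior mean TPM, normalised counts per effective length, and leaving out each library. The genes, lists and tests were chosen with earlier results of these data known. Named were the 6 genes, *Prdm10*, the called gene of each list with the largest change in each direction at Day 4, list genes on the study's list of bound genes, the 3 genes most like *Ube2a* and *Ube2b*, and genes starting within 2 kb of either. The labels do not say whether replicates were separate cultures. The study's methods describe its experiments in general as repeated independently, without naming these libraries, so p-values measure the spread between these samples, part of which may be technical. Strand settings of the counting are not given in the sources used here. Protein sequences were not used here, and 1 gene of the N-degron list is not reported here.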

Additional observations from a re-analysis of the deposited data

Results flagged for a closer look

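For 26 genes the difference between the libraries labelled OHT and EtOH is described. The interaction term of day and label (DESeq2, adjusted as in the other tests) called 13 of them as differing between the 2 days. Among all genes tested it called 32.5%. Given as the Day 4 minus the Day 2 log2 fold change, the values were -0.30 for *Ube2a* (SE 0.083, adjusted p = 0.0028), 0.14 for *Rnf20* (SE 0.053, adjusted p = 0.0439), -0.23 for *Prdm10* (SE 0.081, adjusted p = 0.0217), -0.34 for *Rev3l* (SE 0.071, adjusted p = 2.9e-05), 0.38 for *Ube2m* (SE 0.065, adjusted p = 2.6e-07), -0.27 for *Ube2v1* (SE 0.060, adjusted p = 8.7e-05) and -0.22 for *Pcna* (SE 0.058, adjusted p = 0.0017). *Ube2a* fell further at Day 4 in the same direction, and *Prdm10* was higher under the OHT label at both days, by less at Day 4. The other 6 were the genes most like *Ube2a* or *Ube2b*, which were chosen by their pattern over these libraries, so their values are a description: -0.82 for *Hyal2*, -1.01 for *Sri*, -1.78 for *Hap1*, 0.26 for *Pik3c2a*, 0.22 for *Tagap1* and 0.35 for *Ptbp3*. *Ube2m* and *Ube2v1* were named for the size of their Day 4 change and *Pcna* after its values were seen. The count of 13 thus rests in part on genes chosen from these values, and its excess over 32.5% is not a result. With 3 libraries in each group, single libraries were not tested as outliers.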

How the results depend on the processing

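Both falls of *Ube2a* and both falls of the pair's summed counts kept their direction and their call under every alternative that was run for them. The summed TPM was lower over both days by 0.23 to 0.32 and the ratio higher by 0.99 to 1.09 on the log2 scale under 14 alternatives, with an exact permutation p of at most 0.01. For *Ube2b* the Day 4 call was lost with the replicate block (0.15, adjusted p = 0.0651), and leaving out 1 library gave 0.12 to 0.18; the Day 2 value, -0.02, turned to 0.012 with effective lengths as offsets and to 0.016 with total counts, and leaving out 1 library gave -0.075 to 0.048, none of these called. The replicate block left 1 gene of the 6, *Ube2a*, called at each day and in the difference between the days. It left 0 in place of 3 genes of PCNA ubiquitination at Day 2 and 0 in place of 2 genes on the H2B deubiquitinase list at Day 4. Of the pathway genes at Day 2 it called 6 in place of 11, where 1 fit to all 12 libraries called 17. Leaving out 1 library gave 1 to 3 genes of the 6 at Day 2, 1 to 2 at Day 4, 4 to 11 pathway genes at Day 2 and 18 to 27 at Day 4; edgeR called 4 of the 6 at Day 4. Values near 0 also changed sign: *Ubr2* at Day 4 with effective lengths (0.0036) and, with 1 library left out, from -0.073 to 0.019; *Ube2d3* at Day 4 with 1 library left out, from -0.029 to 0.0063; *Rnf20* at Day 4 likewise, from -0.0034 to 0.021; and *Ube2a* between days under EtOH in edgeR (0.0015). The cause of these changes was not tested.

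The labels give same-numbered libraries nothing in common but a number, so the block was not taken as a pairing. Correlations of their deviations from group means ran from -0.04 to 0.08 at Day 2 and from -0.23 to 0.12 at Day 4. Between the days they ran from -0.006 to 0.28 under EtOH and from -0.38 to 0.0008 under OHT. At Day 2 0 of 6 and at Day 4 1 of 6 libraries correlated best with their own number. Between the days 2 of 6 did so under EtOH and 0 of 6 under OHT. With 3 libraries a group, these values cannot show whether same-numbered libraries shared a culture or batch. The replicate block called 1306 genes at Day 2 in place of 2341, and leaving out Day 2 EtOH replicate 1 or 2 called 1197 or 1442. With total counts, 68.5% of the Day 2 calls were higher in place of 46.0%. With 3 libraries a group, the per-day permutation tests could not reach 0.05.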
